A study of Mus musculus with 11 samples.

Results

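The genes described here are 9 genes of retinoid metabolism, *Aldh1a1*, *Aldh1a2*, *Aldh1a3*, *Rbp4*, *Crabp1*, *Crabp2*, *Rdh10*, *Cyp26b1* and *Stra6*, taken as a given list and not selected by a cutoff. All 9 were found among the 34728 gene symbols of the RNA-seq table of sorted mouse β-cells. Their expression was compared across 11 libraries, 3 from WT, 4 from diabetic βRapKOGFP and 4 from euglycemic βRapKOGFP mice. All mice were 8-week-old males on a mixed C57BL/6 x 129SV background. All carried the RIP-Cre transgene, in which the rat insulin promoter drives Cre recombinase, and a Cre-activated GFP at *Rosa26*, which marks cells that have used the insulin promoter, and the cells were sorted from dispersed islets by GFP. WT mice were Raptor+/+ littermates and received no insulin. Diabetic βRapKOGFP mice were Raptor-/- in RIP-Cre cells, a deletion made to remove Raptor, a subunit of the growth kinase complex mTORC1, and were untreated. Euglycemic βRapKOGFP mice had the same genotype and had carried an insulin implant, called a pellet in the labels and a mini-osmotic pump in the methods, for 4 weeks. The comparisons ask which changes follow the loss of Raptor and which differ with the insulin treatment that lowered blood glucose. No insulin-treated or sham-implanted WT group is among the libraries, so glycemia, insulin exposure and the implant cannot be told apart. GFP marks the lineage and not the present identity of a cell. How many animals made up a library is not given in the sources used here, so p values measure the spread between these libraries.

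Vitamin A travels in blood as retinol bound to RBP4 and enters some cells through the membrane receptor STRA6. Inside the cell retinol is oxidized to retinaldehyde by RDH10 and related enzymes, and retinaldehyde is oxidized irreversibly to retinoic acid by the ALDH1A enzymes. Retinoic acid acts on nuclear RAR and RXR receptors, is bound by CRABP1 and CRABP2 and is broken down by the CYP26 enzymes. It is needed for the formation of the endocrine pancreas, and *Aldh1a3* is widely used as a marker of failing or dedifferentiated adult β-cells.

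Levels are given as FPKM, that is, fragments per kilobase of transcript and per library size, so they are corrected for gene length. From the step size of low values the libraries held an estimated 9496650 to 16642350 fragments. A gene was tested when its FPKM was 1 or more in 3 or more libraries, which 11251 genes and 3 of the 9 members (*Aldh1a3*, *Rbp4* and *Rdh10*) did. These were fitted with limma on log2(FPKM + 1), with all 11 libraries in a single fit, and a gene was called at an adjusted p (Benjamini-Hochberg over all genes tested) of 0.05 or less together with a 1.5-fold or larger change. A fold change on this scale understates the change of genes near 0. The other 6 members stayed below the minimum and were compared with two-sided exact permutation tests on the same scale. The 10 β-cell markers checked, among them *Ins1* and *Ins2*, were above 0 in every group, with a summed FPKM between 117287 and 206534. Of these 10, *Slc2a2*, the glucose transporter, and *Slc30a8*, a zinc transporter of insulin granules, were called lower in both mutant groups against WT, with a mean FPKM of 75.6 and 682 in WT, 17.5 and 200 in diabetic, and 21.7 and 278 in euglycemic libraries. *Rptor*, the targeted gene, had an FPKM of 0.948 to 1.79 in WT, 0.485 to 0.937 in diabetic and 0.423 to 0.623 in euglycemic libraries. Exact permutation tests of *Rptor* gave p = 0.0571 for diabetic and p = 0.0286 for euglycemic against WT, and p = 0.00606 for both mutant groups together, the smallest that 8 libraries against 3 allow. Diabetic replicate 1 stood apart from the rest with 25711 genes above 0, against 13095 to 17329 in the other libraries.

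*Aldh1a3* had the highest level of the retinaldehyde dehydrogenases and the largest fold change of the members tested. It was low in WT β-cells (0.385 to 1.11 FPKM), between 14.4 and 44.96 FPKM in the diabetic libraries and between 3.66 and 50.9 FPKM in the euglycemic libraries. Between diabetic and WT libraries it was called higher, at a log2 fold change of 4.27 (standard error 0.65, 95% confidence interval 2.87 to 5.67, adjusted p = 0.00915 from limma). *Rbp4* was called higher in euglycemic than in WT libraries, *Rdh10* was not called in any comparison, and the other 6 members stayed under 1 FPKM in every library, with *Aldh1a1* highest at 0.815 in diabetic replicate 1.

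**Figure D1:**
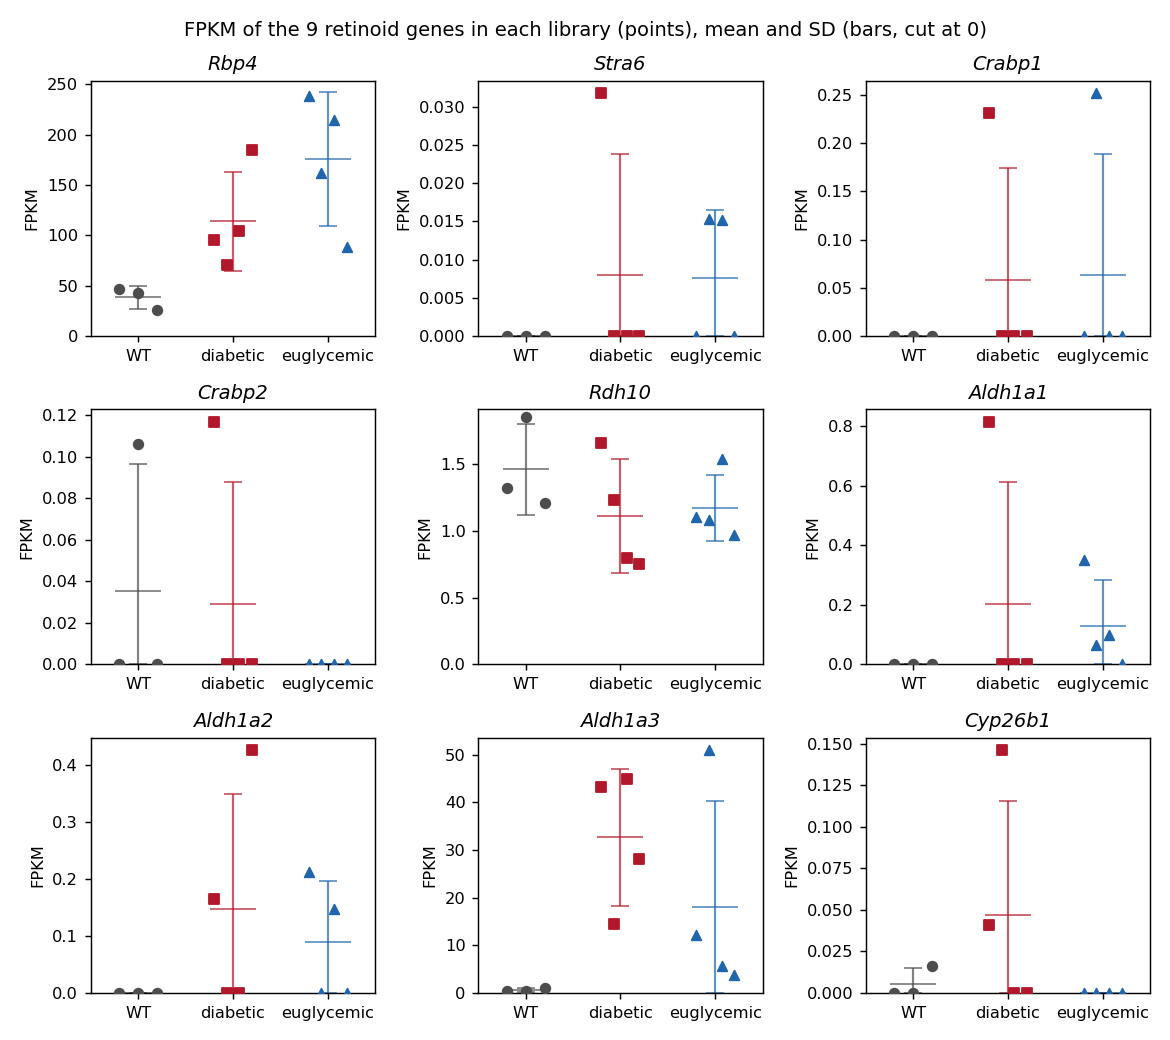
FPKM of each of the 9 genes in 3 WT, 4 diabetic and 4 euglycemic libraries. Points are libraries, the wide bar is the group mean and the whiskers are 1 SD (cut at 0), and each panel has its own axis. Every mutant library lies above every WT library for Aldh1a3 and Rbp4, while the highest value of the 6 members below the expression minimum is 0.815 (Aldh1a1, diabetic replicate 1).

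*Rbp4* encodes the retinol carrier (ENSMUSG00000024990, chromosome 19 from 38116629 to 38125281 on the minus strand of mm10). It is made mainly by liver and fat, and among islet cells of the mouse it is known as a gene of somatostatin-producing δ-cells. In WT replicates 1, 2 and 3 its FPKM was 46.8, 42.8 and 25.4. In diabetic replicates 1 to 4 it was 95.6, 71.0, 104.5 and 184.6, and in euglycemic replicates 1 to 4 it was 238.7, 161.8, 215.0 and 88.7. All 8 mutant libraries were above all 3 WT libraries, and the mutant groups overlapped, with diabetic replicate 2 lowest and euglycemic replicate 1 highest. The mean was 38.3 ± 11.4 (SD, n = 3) for WT, 113.9 ± 49.2 (SD, n = 4) for the diabetic group and 176.1 ± 66.5 (SD, n = 4) for the euglycemic group.

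Between euglycemic and WT libraries *Rbp4* was called higher, with a log2 fold change of 2.12 (standard error 0.37, 95% confidence interval 1.31 to 2.93, adjusted p = 0.0248 from limma). Between diabetic and WT libraries its log2 fold change was 1.504 (standard error 0.37, 95% confidence interval 0.70 to 2.31), and the adjusted p of 0.0912 from limma did not pass. The direct comparison of diabetic with euglycemic libraries gave -0.62 (95% confidence interval -1.37 to 0.13, adjusted p = 0.322 from limma), so the call in only the euglycemic group is not evidence of a difference between the mutant groups. An exact permutation test of *Rbp4* in both mutant groups against WT gave p = 0.00606, the smallest possible. The call in euglycemic libraries is close to the threshold. The adjusted p from limma was 0.0996 without WT replicate 2, 0.177 without WT replicate 3, and 0.0680, 0.0741 and 0.0674 without euglycemic replicates 1, 2 and 3. Without euglycemic replicate 4, which is in neither group of that comparison, the *Rbp4* rise in diabetic libraries passed at an adjusted p of 0.0299 from limma.

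Hormone genes typical of other islet cells also had higher levels in the mutant libraries, though not all were called. *Gcg*, *Ppy* and *Pyy* lay above WT in every mutant library. *Ppy* and *Pyy* were called higher in both mutant groups, and *Gcg* was not called in diabetic libraries. *Sst*, which encodes the δ-cell hormone somatostatin, had an FPKM of 1854, 2469 and 1149 in WT replicates 1, 2 and 3. Diabetic libraries had 4868 to 12069 and euglycemic libraries 4774 to 13782, again without overlap with WT. *Sst* was called higher in euglycemic libraries (log2 fold change 2.55, adjusted p = 0.0199 from limma) and missed the threshold in diabetic libraries (1.995, adjusted p = 0.0504 from limma). Of the 5 δ-cell markers checked (among them *Sst*, *Hhex*, *Ghsr* and *Lepr*), 3 were tested, of which 0 were called in diabetic libraries (2 at unadjusted p in limma) and 1 in euglycemic libraries. Of all genes tested, 0.969% were called in diabetic libraries (8.26% at unadjusted p in limma) and 0.551% in euglycemic libraries. Their summed FPKM was 1153 to 2474 in WT, 4873 to 12080 in diabetic and 4775 to 13793 in euglycemic libraries, and *Lepr* was at 0 in every euglycemic library. In bulk libraries, more cells of a type and more RNA per cell cannot be told apart. By staining, the paper did not see somatostatin or pancreatic polypeptide together with GFP and insulin in islets of untreated mutants. It also describes the sorted cells as less than fully pure, and the share of other cells in these libraries was not tested.

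Relative to *Sst*, *Rbp4* was not higher in the mutants. For every 100 FPKM of *Sst*, WT libraries had 1.73 to 2.52 FPKM of *Rbp4*, diabetic libraries 1.41 to 1.79 and euglycemic libraries 1.17 to 1.86. On the log2 scale the ratio was lower by 0.467 in diabetic (exact permutation p = 0.0857), by 0.394 in euglycemic (exact permutation p = 0.229) and by 0.430 in both mutant groups together (exact permutation p = 0.0485, two-sided, 8 libraries against 3). This ratio was chosen after the values had been seen.

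**Figure D2:**
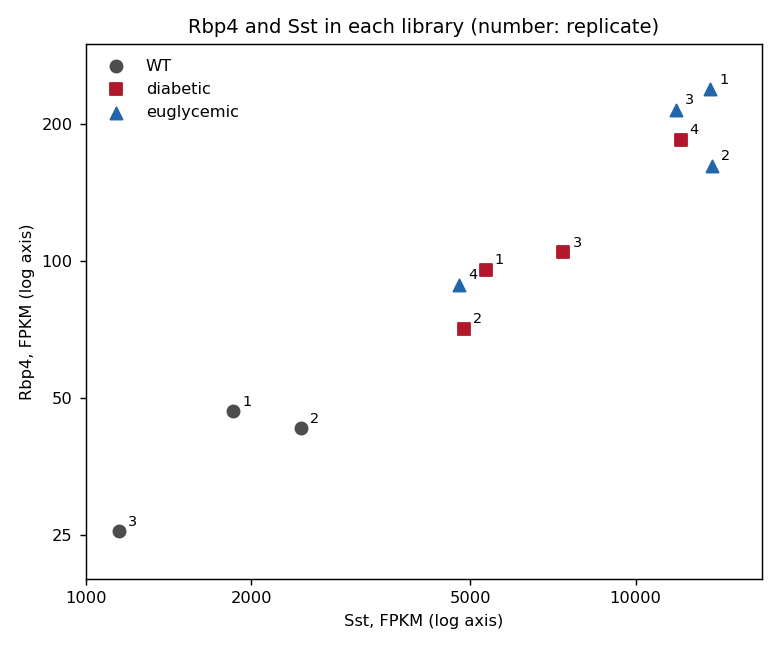
FPKM of Rbp4 against FPKM of Sst, both on log axes, in each of the 11 libraries, with the replicate number beside each point. WT libraries lie at the lower left, and the mutant libraries lie along the same direction, with euglycemic replicate 4 and diabetic replicates 1 and 2 nearest to WT.

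*Stra6* encodes the receptor that takes up retinol from RBP4 (ENSMUSG00000032327, chromosome 9 from 58063788 to 58153996 on the plus strand). It was at 0 in all 3 WT libraries and above 0 in 3 of the 8 mutant libraries, at 0.0318 in diabetic replicate 1, 0.0153 in euglycemic replicate 2 and 0.0152 in euglycemic replicate 3. Each value is under the FPKM that 3 fragments would give in its library, which was 0.0309 to 0.0542 over all libraries. A difference in *Stra6* between the groups was not detectable at this depth.

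The retinoic acid-binding proteins were equally sparse. *Crabp1* (ENSMUSG00000032291, chromosome 9 from 54764748 to 54773110, plus strand) was above 0 in diabetic replicate 1, at 0.232, and in euglycemic replicate 2, at 0.252. *Crabp2* (ENSMUSG00000004885, chromosome 3 from 87948666 to 87953376, plus strand) was above 0 in WT replicate 2, at 0.106, and in diabetic replicate 1, at 0.117. None of these values exceeded the FPKM of 3 fragments in its library, so a difference was not detectable.

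*Rdh10* encodes the dehydrogenase that makes retinaldehyde from retinol (ENSMUSG00000025921, chromosome 1 from 16105774 to 16133734, plus strand). Its FPKM was 1.32, 1.85 and 1.21 in WT replicates 1, 2 and 3. It was 1.66, 1.24, 0.796 and 0.755 in diabetic replicates 1 to 4 and 1.10, 1.08, 1.54 and 0.967 in euglycemic replicates 1 to 4. The 3 groups overlapped, with the lowest values in diabetic replicates 3 and 4 and the highest in WT replicate 2. The log2 fold change of *Rdh10* was -0.23 in diabetic (95% confidence interval -0.67 to 0.21, adjusted p = 0.715 from limma) and -0.18 in euglycemic against WT libraries (95% confidence interval -0.62 to 0.26, adjusted p = 0.717 from limma). Diabetic against euglycemic libraries gave -0.06 (95% confidence interval -0.46 to 0.35, adjusted p = 0.895 from limma). With an estimated 38.2 to 95.9 fragments per library, changes of the size seen for *Aldh1a3* or *Rbp4* are outside these intervals.

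*Aldh1a3* encodes a retinaldehyde dehydrogenase that makes retinoic acid (ENSMUSG00000015134, chromosome 7 from 66390890 to 66427517, minus strand). Its FPKM was 0.400, 0.385 and 1.11 in WT replicates 1, 2 and 3, which corresponds to an estimated 21.1 to 69.3 fragments. In diabetic replicates 1 to 4 it was 43.2, 14.4, 44.96 and 28.2, and in euglycemic replicates 1 to 4 it was 12.1, 50.9, 5.61 and 3.66. Every mutant library was above every WT library, and the mutant groups overlapped, since euglycemic replicate 2 had the highest value of all. The mean was 0.631 ± 0.413 (SD, n = 3) for WT, 32.7 ± 14.4 (SD, n = 4) for the diabetic group and 18.1 ± 22.2 (SD, n = 4) for the euglycemic group. The ratio of the highest to the lowest library was 3.13 within the diabetic group and 13.9 within the euglycemic group.

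*Aldh1a3* was 1 of 3 members tested and called between diabetic and WT libraries, where 0.969% of all genes tested were called, 0.471% higher and 0.498% lower. On the log2(FPKM + 1) scale its rise was 19.3-fold, and the ratio of mean FPKM was 51.8. The adjusted p of *Aldh1a3* from limma rose to 0.0561 without WT replicate 1 and to 0.0525 without WT replicate 2, with the log2 fold change at 4.18 and 4.17. Between euglycemic and WT libraries the log2 fold change was 2.91 (standard error 0.65, 95% confidence interval 1.51 to 4.31), and the adjusted p of 0.0794 from limma did not pass. *Rbp4* was the 1 of 3 members called in that comparison, where 0.551% of all genes tested were called, 0.356% higher and 0.196% lower. Without euglycemic replicate 4, which had the least *Aldh1a3* of the mutant libraries, the *Aldh1a3* rise was 3.37 and passed (adjusted p = 0.0295 from limma). Exact permutation tests of *Aldh1a3* against WT gave p = 0.0286 for diabetic libraries, the smallest possible, p = 0.0571 for euglycemic libraries, which did not pass, and p = 0.00606 for both mutant groups together, again the smallest possible.

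Whether *Aldh1a3* differed with insulin treatment was addressed by the mutant groups alone. Glycemia, insulin exposure and the implant changed together between them and cannot be told apart. Diabetic libraries had a log2 fold change of 1.36 over euglycemic libraries (standard error 0.60, 95% confidence interval 0.06 to 2.66), at an adjusted p of 0.224 from limma. An exact permutation test of the 4 against 4 libraries gave p = 0.171, where the smallest possible is 0.0286. Of the 3 members tested 0 were called in this comparison, in which 0.00889% of all genes (1 gene) were called. At unadjusted p with the same fold, 1 member passed against 12% of all genes tested. The order of the levels was WT, euglycemic, diabetic, and the ranges of the last 2 overlapped, with neither the adjusted p nor the exact test passing.

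The other retinaldehyde dehydrogenases stayed far below *Aldh1a3* in the mutant libraries. *Aldh1a1* (ENSMUSG00000053279, chromosome 19 from 20492715 to 20643465, plus strand) was at 0 in all WT libraries, where 3 fragments would give 0.0442 to 0.0512. It was 0.815 in diabetic replicate 1 and 0 in the other diabetic libraries, and 0.351, 0.0656, 0.0972 and 0 in euglycemic replicates 1 to 4. *Aldh1a2* (ENSMUSG00000013584, chromosome 9 from 71215789 to 71296243, plus strand) was also at 0 in all WT libraries. It reached 0.164 in diabetic replicate 1, 0.427 in diabetic replicate 4, 0.212 in euglycemic replicate 1 and 0.147 in euglycemic replicate 3. In the mutant libraries, *Aldh1a3* made up between 95.5% and 100% of the summed FPKM of the 3 genes. *Aldh1a1* and *Aldh1a2* were each above 0 in 4 of 8 mutant and 0 of 3 WT libraries, and exact permutation tests of mutant against WT gave p = 0.485 for *Aldh1a1* and p = 0.364 for *Aldh1a2*. Of the 50-base stretches in their transcripts, 1.15% of *Aldh1a3* and 3.06% of *Aldh1a1* also occurred in other genes, and no exon of any member overlapped another gene.

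*Cyp26b1*, which encodes an enzyme that degrades retinoic acid (ENSMUSG00000063415, chromosome 6 from 84571414 to 84593908, minus strand), was above 0 in 3 libraries. Its FPKM was 0.0162 in WT replicate 3, 0.0409 in diabetic replicate 1 and 0.146 in diabetic replicate 2, and it was at 0 in all euglycemic libraries. Across the 6 members below the minimum, 48 of 66 library values were 0. All 6 were above 0 in diabetic replicate 1, the library with by far the most genes detected, and the part of that library in their values was not tested. In none of the 4 comparisons, including both mutant groups together against WT, did any of the 6 reach p = 0.05 by the exact permutation test.

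Outside the members, no tested gene of the pathway was called higher in either mutant group against WT. Of 61 further genes of retinoid transport, storage, oxidation, reduction, degradation and signalling, 23 were tested and 4 (among them *Cyp26a1*, *Cyp26c1* and *Rxrg*) were at 0 in every library. Between diabetic and WT libraries 0 of the 23 were higher and 2 lower, *Dhrs4* and *Lpl*, or 8.70% of those tested, where 0.969% of all genes tested were called and 0.498% were called lower. Between euglycemic and WT and between diabetic and euglycemic libraries 0 of 23 were called. At unadjusted p with the same fold, limma gave 4 of 23 in diabetic (17.4%, against 8.26% of all genes), 7 of 23 in euglycemic (30.4%, against 9.92%) and 4 of 23 between the mutant groups (17.4%, against 12%). The 4 were 1 higher and 3 lower, the 7 were 2 higher and 5 lower, and the last 4 were 1 higher and 3 lower. The median log2 fold change of the 23 genes was -0.06 in diabetic and -0.13 in euglycemic against WT libraries, beside 0.01 and -0.01 for all genes tested.

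*Dhrs4* encodes an NADP-dependent retinol dehydrogenase and retinaldehyde reductase. Its FPKM was 48.9, 35.5 and 36.9 in WT replicates 1, 2 and 3, against 9.76, 11.3, 13.7 and 18.4 in diabetic replicates 1 to 4. In euglycemic replicates 1 to 4 it was 33.2, 16.8, 23.0 and 15.0. Every mutant library was below every WT library. The log2 fold change was -1.56 in diabetic (standard error 0.28, adjusted p = 0.0224 from limma) and -0.90 in euglycemic libraries (standard error 0.28, adjusted p = 0.186 from limma). *Lpl* encodes lipoprotein lipase, which also helps cells take up retinyl esters from lipoproteins. It was 17.9 to 31.0 in WT, 8.24 to 10.6 in diabetic and 8.98 to 18.3 in euglycemic libraries, so that only the diabetic group did not overlap with WT. Its log2 fold change was -1.22 in diabetic (adjusted p = 0.0376 from limma) and -0.67 in euglycemic libraries (adjusted p = 0.258 from limma). Both calls in diabetic libraries were lost without any single WT library and without diabetic replicate 1, 2 or 3, and the count was 1 without diabetic replicate 4 or euglycemic replicate 3.

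**Figure D3:**
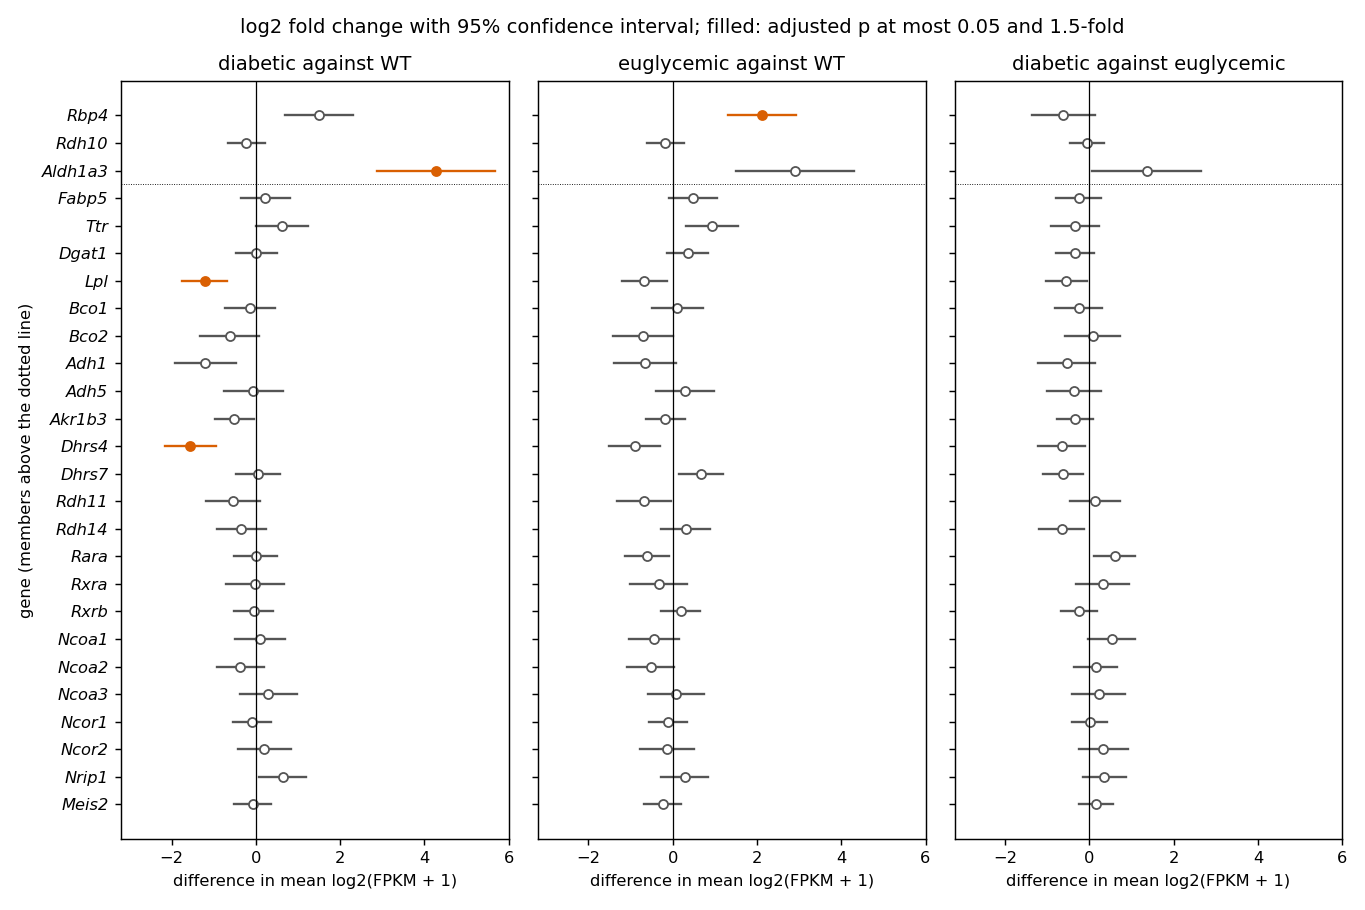
Difference in mean log2(FPKM + 1) with its 95% confidence interval from limma for the 3 tested members (above the dotted line) and the 23 tested pathway genes, in 3 comparisons. Filled symbols are called genes. Aldh1a3 (4.27) and Rbp4 (2.12) are called higher in 1 comparison each, and Dhrs4 (-1.56) and Lpl (-1.22) are called lower in diabetic against WT.

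By role, the most abundant pathway gene among carriers was *Ttr*, which encodes transthyretin, the partner of RBP4 in blood, with a mean FPKM of 574.6 over all libraries. Among the enzymes that interconvert retinol and retinaldehyde it was *Dhrs7*, at 130.04, which in euglycemic libraries lay at 145.3 to 214.1 and did not overlap with the diabetic range of 91.9 to 122.3, without being called (log2 fold change -0.63 for diabetic against euglycemic, adjusted p = 0.164 from limma). *Lpl* led the genes of ester storage and release at 15.0. *Bco1*, which cleaves β-carotene, led its role at 4.22. Of the nuclear receptors *Rxrb* was highest at 4.74, of their cofactors *Ncoa1* at 11.8, and of the genes known to respond to retinoic acid *Meis2* at 3.82. None of *Ttr*, *Dhrs7*, *Bco1*, *Rxrb*, *Ncoa1* and *Meis2* was called in any comparison. *Aldh8a1*, the highest of the remaining retinaldehyde dehydrogenases, was above 0 in diabetic replicate 1 alone, at 0.505, and both further CYP26 genes were at 0. Of 15 aldehyde dehydrogenases outside this pathway 12 were tested and 0 were called in each of the 3 comparisons, and at unadjusted p limma gave 0, 0 and 1 of 12.

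*Aldh1a3* was set beside 6 genes often used with it as markers of dedifferentiated β-cells or endocrine progenitors. *Cd81*, a surface tetraspanin, was called higher in diabetic (log2 fold change 1.18, adjusted p = 0.0210 from limma) and in euglycemic libraries (1.49, adjusted p = 0.0071 from limma), where 0.969% and 0.551% of all genes tested were called. It ranged from 44.97 to 68.9 FPKM in WT, 128.3 to 152.1 in diabetic and 137.2 to 203.1 in euglycemic libraries. The other 5 (*Neurog3*, *Sox9*, *Gast*, *Cck* and *Slc5a10*) were not called in any comparison. With *Cd81* included, 5 of the 6 were higher in diabetic and 3 in euglycemic libraries at unadjusted p in limma, where 8.26% and 9.92% of all genes tested passed, with 0 between the mutant groups. The 5 genes apart from *Cd81* were below 1 FPKM in every WT library, so they entered the test only through mutant libraries. All 6 were also picked after their values were seen, so these counts are a description and carry no support. *Cck* was at 0 in all WT libraries, at 0.235 to 8.13 in the diabetic and at 0 to 6.49 in the euglycemic group. Both comparisons with WT share the WT libraries.

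Over the 8 mutant libraries, the 5 tested genes whose log2(FPKM + 1) was most like that of *Aldh1a3* were *Usp2* (Pearson r = 0.965), *Smarca2* (0.962), *Cd200* (0.948), *Tcim* (0.944) and *Chpf* (0.939). They were the highest of 11250 genes ranked over 8 points that share depth and composition, so the coefficients are a description and carry no test. With the group means removed the coefficients were 0.972, 0.946, 0.942, 0.930 and 0.913. *Cd200*, which encodes a surface glycoprotein, had FPKM values of 9.49 to 12.2 in WT, 15.8 to 26.04 in diabetic and 8.42 to 28.4 in euglycemic libraries. None of the 5 was called against WT, and *Tcim* had the largest log2 fold change of them in diabetic libraries, 1.28 (adjusted p = 0.255 from limma). *Rbp4* was not among the genes like *Aldh1a3*, with r = -0.06 over the same libraries and 0.30 with the group means removed.

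**Figure D4:**
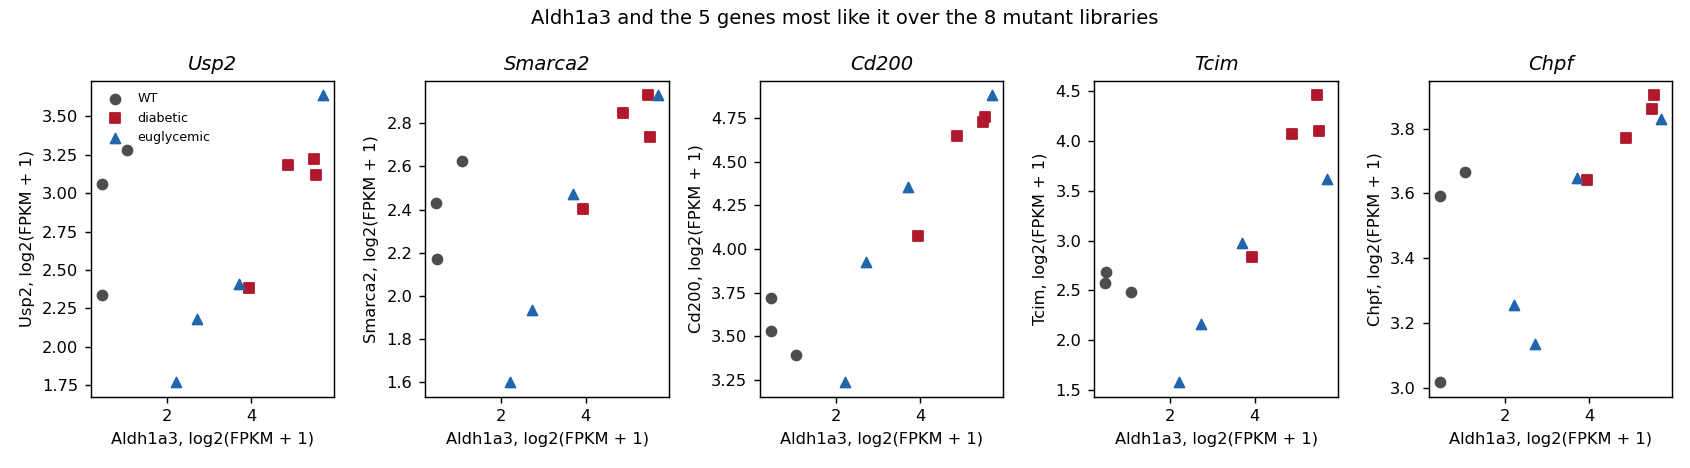
log2(FPKM + 1) of Usp2, Smarca2, Cd200, Tcim and Chpf against that of Aldh1a3 in all 11 libraries. In the 8 mutant libraries (squares and triangles) each gene follows Aldh1a3 with r of 0.939 to 0.965, while the WT libraries (circles), which have little Aldh1a3, lie within or near the mutant range of these genes.

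The RNA level of acinar marker genes differed between the libraries and is given beside *Aldh1a3* and *Rbp4*. The summed FPKM of 10 acinar markers was 1.76 to 31.2 in WT libraries. It was 680 to 3378 in 5 mutant libraries (diabetic replicates 1, 2 and 3 and euglycemic replicates 1 and 4) and 1.49 to 2.99 in the other 3 (diabetic replicate 4 and euglycemic replicates 2 and 3). *Ptf1a*, the acinar transcription factor, was at 0 in all WT and all euglycemic libraries, and 9 of the 10 markers were tested with 0 called in each comparison. At unadjusted p in limma 7, 0 and 0 of the 9 passed, beside 8.26%, 9.92% and 12% of all genes tested. In the 3 mutant libraries with little acinar signal, separated after the values were seen, *Aldh1a3* was 28.2, 50.9 and 5.61 FPKM and *Rbp4* was 184.6, 161.8 and 215.0, all above WT. With only the 6 libraries of low acinar signal in the fit, the log2 fold change of *Aldh1a3* between diabetic and WT was 4.19, with an adjusted p of 0.197 from limma, where the lone diabetic library is assumed to vary like the others. For *Rbp4* between euglycemic and WT it was 2.30, with an adjusted p of 0.0802.

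**Figure D5:**
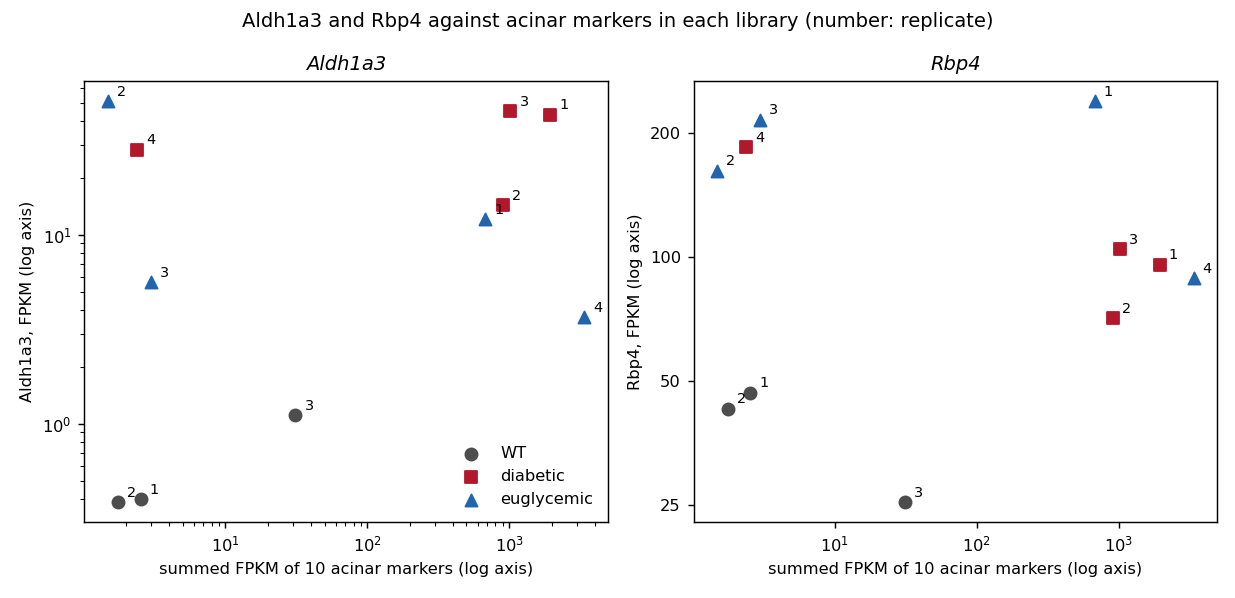
FPKM of Aldh1a3 (left) and Rbp4 (right) against the summed FPKM of 10 acinar markers, all on log axes, with the replicate number beside each point. The 3 mutant libraries with acinar sums of 1.49 to 2.99 lie above all WT libraries for both genes.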

How the data were processed

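GFP+ β-cells were sorted from islets of 8-week-old mice and poly-A RNA was sequenced in 11 libraries. The authors deposited FPKM values per gene and library on mm10. The study's methods name Tophat and Cufflinks for alignment and quantification, and the submitters' processing notes name HISAT2 2.0.4, StringTie 1.3.0 and edgeR, and which of them made the table was not settled. No counts of fragments are in the table. Of 34745 entries, 34267 matched a gene symbol, and 17 entries with a repeated symbol were left out. Coordinates are those of GENCODE vM21 on GRCm38 (mm10).

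Depth was inferred from 4490 single-exon genes of at least 500 bases, in which 92.7 to 97.3% of low values were whole multiples of the step that 1 fragment gives (tolerance 0.02). It was 9496650 to 16642350 fragments per library, and fragments per gene were estimated from its exon length. Floors are 3 fragments and cover counting error only.

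Fits used limma 3.58.1 in R 4.3.3 (lmFit, eBayes with trend) on log2(FPKM + 1) over genes whose FPKM was 1 or more in 3 or more libraries, without covariates. The fit was tested on simulated data. Summaries and figures used Python 3.11.15, numpy 2.4.6, pandas 2.3.3 and matplotlib. The members and gene lists were chosen with earlier results of these data known. Named genes were all members, each called pathway gene or other aldehyde dehydrogenase, the most abundant pathway gene by role, the 5 genes most like *Aldh1a3*, *Rptor* and the cell type lists. The islet hormone, β-cell, δ-cell and dedifferentiation genes named beyond this rule were picked after their values were seen. Single-gene results of some listed genes are not reported here. Alternatives were the filter, the pseudocount, TPM, the median of ratios, 2 groups only, no trend, library weights, a replicate block, unadjusted p, no fold criterion and leaving out each library. Exclusions of whole sets of libraries, the ratio to *Sst* and exact tests of the tested members were added after seeing the data.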

Additional observations from a re-analysis of the deposited data

Results flagged for a closer look

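In groups of 4, a library was flagged when its gap to the nearest other library, divided by the group's range, was above Dixon's critical value. Chance flags about 1 in 20 groups with values above 0. Of 54 groups of values looked at, 7 were flagged. In 5 of them the other 3 libraries of the group were at 0, which flags a value of any size, so these say nothing beyond the values themselves. In diabetic replicate 1 these were *Aldh1a1* at an FPKM of 0.815, *Crabp1* at 0.232, *Crabp2* at 0.117 and *Stra6* at 0.0318, and in euglycemic replicate 2 it was *Crabp1* at 0.252. Only *Aldh1a1* was above the FPKM of 3 fragments in its library, with an estimated 43.3 fragments. *Usp2*, the gene most like *Aldh1a3*, was low in diabetic replicate 2, at 4.21 against 7.70 to 8.34, the library that also had the least *Aldh1a3* of its group. The summed FPKM of the β-cell markers was high in diabetic replicate 2, at 206534 against 138230 to 144002. The part of these libraries in the comparisons was not tested beyond leaving each out.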

How the results depend on the processing

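The rise of *Aldh1a3* in diabetic libraries kept its direction in all 22 alternatives and was called in 18, with log2 fold changes of 4.08 to 5.49. The call was lost without the filter (adjusted p = 0.0766 from limma) and without WT replicate 1 or 2. It was also lost in the low-acinar libraries, which leave 1 diabetic library, so that the lost calls there and below say nothing of stability, while the log2 fold change was 4.19. *Rbp4* in euglycemic libraries kept its direction in 22 and its call in 13. *Aldh1a3* in euglycemic libraries was called with pseudocount 0.1 (4.02, adjusted p = 0.0356 from limma), library weights (3.57, adjusted p = 0.00177) and without euglycemic replicate 4, alone or with diabetic replicate 1 (adjusted p = 0.0435). *Rdh10* between diabetic and euglycemic libraries, never called, reversed to 0.00482 with TPM, 0.0152 and 0.0263 without diabetic replicates 3 and 4, and 0.0212 without euglycemic replicate 3, in a range of -0.174 to 0.0263 when single libraries were left out.

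Of the members, 1 was called in diabetic against WT. This count was 0 without the filter and in the low-acinar libraries, 2 with library weights or unadjusted p, and 0 to 2 when single libraries were left out. In euglycemic against WT, also 1, it was 0 without the filter, with only the 2 groups and in the low-acinar libraries, and 2 with pseudocount 0.1, library weights, unadjusted p, or without diabetic replicate 1 and euglycemic replicate 4 together, and 0 to 2 when single libraries were left out. In diabetic against euglycemic it was 1 at unadjusted p and otherwise 0. Of the pathway genes, 2 in diabetic against WT became 0 without the filter and in the low-acinar libraries, 1 with TPM or without diabetic replicate 1 and euglycemic replicate 4, 4 with weights or unadjusted p, and 0 to 3 when single libraries were left out. In euglycemic against WT 0 became 8 with weights, 7 at unadjusted p and 0 to 2 when single libraries were left out, and between the mutant groups 1 with weights and 4 at unadjusted p. All genes called numbered 109, 62 and 1, against 22, 13 and 0 without the filter and 551, 2287 and 1212 with weights. The counts for the 6 members below the minimum stayed at 0.

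Libraries that share a replicate number did not deviate together (mean correlation -0.132 in 10 pairs, from -0.368 to 0.212, against 0.0433 in 30 other pairs), so the numbers were not taken as pairs. With a replicate block, 0 members were called in euglycemic against WT (*Rbp4* 2.14, adjusted p = 0.104 from limma), 0 pathway genes in diabetic against WT, and 45, 20 and 0 of all genes. Groups of 3 and 4 libraries and a depth of at most 16642350 fragments limit what genes near 0 can show.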

Other observations

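The libraries also differed in the summed FPKM of marker genes of pancreatic cell types, and which cells this RNA came from was not tested. The summed FPKM of 7 α-cell markers was 757 to 2138 in WT, 3456 to 14116 in diabetic and 4129 to 22970 in euglycemic libraries. Nearly all of the α-cell sum was *Gcg*. Another of the 7, *Slc7a2*, had lower mean FPKM in both mutant groups (3.84 diabetic, 2.87 euglycemic) than in WT (5.61). Of the 6 α-cell markers tested, 0 were called against WT in the diabetic group, and 2, both higher, in the euglycemic group. At unadjusted p in limma, 2 were higher and 0 lower in the diabetic group, and 2 higher and 1 lower in the euglycemic group. The summed FPKM of *Ppy* and *Pyy* was 513 to 1107, 3674 to 12980 and 4984 to 14238. For 10 β-cell markers it was 157613 to 191511, 138230 to 206534 and 117287 to 202220. For 6 duct markers it was 182 to 302, 224 to 319 and 321 to 459, a sum made up mostly of *Epcam* and *Krt7*. Of the 5 duct markers tested, 1 was called higher in diabetic against WT (0.471% of all genes tested) and 2 in euglycemic against WT (0.356%). *Spp1*, which encodes osteopontin, had 2.93 to 6.001 FPKM in WT, 13.2 to 21.8 in diabetic and 11.7 to 34.8 in euglycemic libraries (log2 fold changes of 1.76 and 2.14, adjusted p = 0.0327 and 0.0149 from limma). *Krt19*, a keratin of duct cells, had 0.505 to 0.853, 2.54 to 6.85 and 5.37 to 16.5 FPKM and was called in euglycemic libraries (2.29, adjusted p = 0.0149 from limma) and not in diabetic libraries (1.496, adjusted p = 0.0815). Both were above WT in every mutant library, and the part of duct RNA in the members' values was not tested. The mesothelial sum, for the 4 of 5 mesothelial markers with an entry, was 309 to 857, 566 to 847 and 460 to 1092. That sum is nearly all *Krt18*, a keratin of many epithelia, since *Wt1* was at 0 in every library and *Upk3b* and *Lrrn4* were at 0 in WT and did not exceed 0.136 elsewhere. Endothelial markers (8 genes) summed to 0.0487 to 1.48, 7.15 to 47.4 and 0.0436 to 2.18, with *Cdh5*, *Kdr*, *Eng* and *Tek* at 0 in WT. Stromal markers (8 genes) summed to 0 to 0.496, 0.563 to 21.8 and 0 to 0.806, with *Lum*, *Pdgfra*, *Pdgfrb* and *Acta2* at 0 in WT, and immune markers (8 genes) to 8.28 to 21.6, 0.827 to 66.2 and 0.612 to 4.601, with *Ptprc*, *Adgre1* and *Cd3e* at 0 in WT. The highest endothelial, stromal and immune sums were those of diabetic replicate 1, without which the diabetic maxima were 14.9, 6.59 and 14.9.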
